A study of Capra hircus with 4 samples.

Results

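The enzymes that add methyl groups to histone lysines and arginines, take them off lysines again, or remove acetyl groups from lysines were examined in stem cells that had been cultured from the secondary hair follicles of cashmere goats (Capra hircus), the follicles that grow the fine undercoat. Genes were taken by symbol, from the KDM, KMT, SETD, SETDB, NSD, PRMT, HDAC and SIRT families and from EZH1, EZH2, EED, SUZ12, EHMT1, EHMT2, SUV39H1, SUV39H2 and DOT1L. This gave 72 of the 20326 genes in the deposited tables. The cells had been isolated from dorsal skin in April, at early anagen (the start of the hair growth phase), or in October, at mid anagen. Each phase has 2 libraries, 1 from a female and 1 from a male, which the labels call biological replicates. No treatment or genetic change is given, and the labels do not say whether the RNA of a library came from 1 animal or several, so p-values measure only the spread between these libraries. All cells had been kept in culture. Replicate and sex cannot be told apart, since replicate 1 is the female and replicate 2 the male of each phase. Phase likewise cannot be told apart from the month of isolation or from anything else that differed between the months. Where 2 values are given for a month, the female library comes before the male one.

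Histone lysine methylation marks chromatin by position. Methylation of histone H3 at lysine 4 (H3K4) and lysine 36 (H3K36) is found at active genes, and methylation at lysine 9 (H3K9) or at lysine 27 (H3K27, written by Polycomb repressive complex PRC2) is found at silent ones. Demethylases of the LSD and JmjC families reverse these marks, arginine methyltransferases act on histones and on many other proteins, and deacetylases remove the acetyl groups that accompany transcription. In skin, PRC2 is known for holding differentiation genes silent in epidermal progenitors, and HDAC1 and HDAC2 are known to be needed for follicle formation.

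The values are taken as abundances per gene scaled for transcript length, from their size and the tools named by the submitters. No read depth could be had, so no counting interval is given. Basal keratinocyte genes were abundant. Of the genes of the follicle bulge, where the stem cells reside, SOX9 was abundant and several others were low. KRT14 was at 20590 and 23510 in April and at 9603 and 8956 in October, and TP63, a basal keratinocyte factor, lay between 78.9 and 138. Of the bulge markers, CD34 was listed at 0 in both April libraries and at 0.136 and 0.0136 in October. LGR5 was at 1.00 and 0.352 in April and 4.48 and 2.90 in October. NFATC1 was at 2.89 and 2.35 in April and 3.80 and 4.66 in October. LHX2, another bulge marker, was at 9.54 and 6.94 in April and 31.7 and 32.1 in October, and it passed the test (difference 1.85, SE 0.18, limma adjusted p = 0.0431). SOX9 was at 101 and 82.5 in April and 150 and 171 in October. TBX1 was at 4.62 and 2.10 in April and 14.3 and 15.8 in October, and neither passed. All of these bulge genes had higher values in both mid libraries, as did 31.5% of all genes tested, and CD34 was too low to be tested. They belong to a joint list of basal keratinocyte and bulge markers, of which 10 were tested. Of these 10, 5 lay above the early libraries, 3 lay below (30.9% of all genes tested) and 2 overlapped. KRT14, KRT5 and ITGB4 were the lower ones, and ITGA6 and TP63 overlapped. The part of these markers in the enzyme differences was not tested. Among 10 fibroblast and dermal papilla markers, 7 could be tested and all 7 had higher values in both mid libraries, which the filter fixed, since all 7 reached 1 only in October. The list's sum was at 0.957 and 2.72 in April and at 173 and 47.1 in October. The sum over 43 S phase genes was 2330 and 2469 in April and 1200 and 1517 in October, and over 50 genes of G2 and mitosis 4015 and 4374 in April and 2112 and 2677 in October. The 4 endothelial markers were under 1 in every library, and PTPRC, the pan-leukocyte marker, was at 0 in all 4. Of the other immune markers, CD3E reached at most 0.162. CD68 was at 3.90 and 3.56 in April and 4.41 and 2.40 in October, an overlap. The summed level of 6 melanocyte markers ran from 5.79 to 7.17 and that of 4 smooth muscle and pericyte markers from 41.5 to 58.5, and the phases overlapped in both sums. The part of proliferation or of fibroblast-type RNA in the differences of the enzymes was not tested. In such bulk libraries, fewer cells of a type and less RNA per cell cannot be told apart.

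Most of the enzymes were moderately expressed. Of the 72, 69 reached a value of 1 in at least 2 libraries and were tested, none of them through the libraries of 1 phase alone. PRMT8 was listed at 0 in every library, HDAC9 lay between 0.0847 and 0.169, and KDM4D between 0 and 0.175. Of those tested, 2 had a mean of at least 100, 50 lay between 10 and 100 and 17 were below 10. The median of their means was 17.2, against 18.8 over all 12486 genes tested. PRMT1, the main asymmetric arginine methyltransferase, was the most abundant with a mean of 269.9, followed by KMT5A, which writes single methyl groups on histone H4 lysine 20, at 101, and by HDAC2 at 92.0, KDM1A at 86.7, HDAC1 at 79.4 and SIRT2 at 79.2.

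With phase as the only term, no enzyme passed the test between the phases. In limma on log2(value + 1), 0 of 69 had an adjusted p under 0.05, where 0.304% of all genes tested did, and the smallest adjusted p was 0.0724, for PRMT1. At an unadjusted p under 0.05 there were 20 enzymes (29%), 10 higher and 10 lower at mid anagen. Among all genes the share was 27.9%, with 13.2% higher and 14.7% lower. Here limma without an intensity trend gave 0 enzymes at the adjusted and 15 at the unadjusted threshold. In 22 enzymes both mid libraries lay above both early ones (31.9%, against 31.5% of all genes), and in 26 both lay below (37.7%, against 30.9%). The median log2 difference was 0.01 for the enzymes and 0.01 for all genes. As a whole the enzymes therefore had shares and a median near those of all genes, while the classes lay on different sides of that median. The direction of a small difference depends on the scale. Rescaling every library to a common total moved the median of all genes to 0.32 and that of the enzymes to 0.35. It reversed the direction of 20 of the 69 enzymes, the largest of them at 0.325 in size as deposited. Class medians are therefore also given after rescaling. Relative to the median of all genes, class medians moved by at most 0.028 between the scalings.

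**Figure D1:**
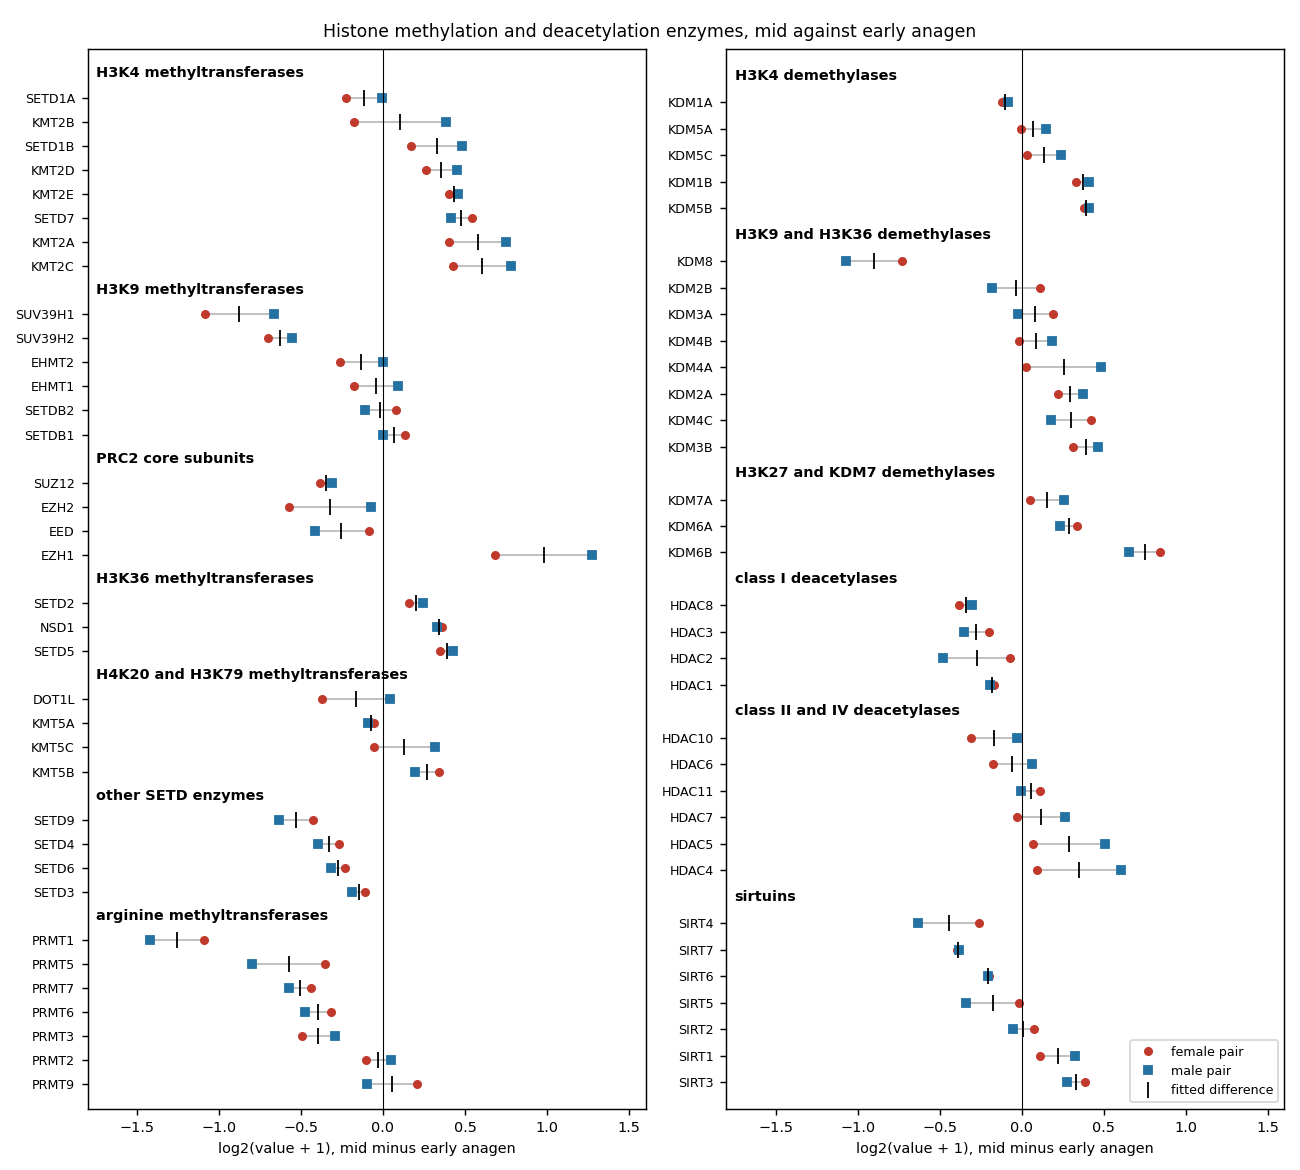
Difference in log2(value + 1) between mid and early anagen for the 69 tested enzymes, by class. Circles stand for the female pair of libraries, squares for the male pair and ticks for the fitted difference; PRMT1 at -1.26 and EZH1 at 0.98 are the extremes.

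The H3K4 methyltransferases mostly had higher values at mid anagen. In 5 of the 8, both mid libraries lay above both early ones (31.5% of all genes tested) and in 0 both lay below (30.9%). The class median was 0.39 on the log2 scale (0.72 after rescaling to a common total). KMT2C, the large COMPASS-type enzyme that acts at enhancers, was at 8.09 and 6.22 in April and at 11.2 and 11.4 in October, a log2 difference of 0.60 (SE 0.17, limma adjusted p = 0.111). KMT2A, which keeps HOX genes active in development, was at 7.57 and 6.40 in April and 10.3 and 11.4 in October, a difference of 0.58 (SE 0.16, limma adjusted p = 0.104). The phases did not overlap for either gene. KMT2E, a family member without clear methyltransferase activity, was at 32.0 and 28.3 in April and 42.7 and 39.3 in October (difference 0.43, SE 0.15, limma adjusted p = 0.144). KMT2D and SETD1B also had both mid libraries above both early ones, with differences of 0.35 and 0.33. Summed over the 5 KMT2 genes, the level was 72.0 and 63.3 in April and 89.0 and 92.5 in October.

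SETD7 was the most abundant H3K4 enzyme, and its phases overlapped. It adds single methyl groups to H3K4 and to several other proteins, and was at 59.0 and 42.5 in April and 86.3 and 57.0 in October, with the female above the male library in each phase. SETD1A and KMT2B overlapped as well, with differences of -0.11 and 0.10. The 3 H3K36 enzymes resembled the KMT2 genes in direction. NSD1, SETD2 and SETD5 each had both mid libraries above both early ones, as did 31.5% of all genes tested. The class median was 0.34 (0.68 after rescaling). SETD5, a SET-domain protein linked to H3K36 methylation and to the NCOR complex, was at 40.1 and 35.8 in April and 51.3 and 48.5 in October (difference 0.39, SE 0.15, limma adjusted p = 0.165). NSD1, which writes the dimethyl mark, was at 27.2 and 27.7 in April and 35.2 and 35.0 in October (difference 0.34, SE 0.13, limma adjusted p = 0.176). SETD2, the main writer of the trimethyl mark, differed by 0.20 (SE 0.15, limma adjusted p = 0.408).

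The tables hold the other NSD genes under older symbols, which the rule did not take. WHSC1, now NSD2, was at 47.0 and 54.2 in April and 27.1 and 38.3 in October (difference -0.63, SE 0.21, limma adjusted p = 0.135). WHSC1L1, now NSD3, was at 22.7 and 21.6 in April and 30.4 and 26.6 in October (difference 0.35, SE 0.15, limma adjusted p = 0.196). The NSD genes thus had values on opposite sides, NSD2 lower and NSD1 and NSD3 higher at mid anagen, and none of the differences passed. With WHSC1 included, the H3K36 enzymes did not all have the same direction.

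Among the H3K9 methyltransferases, the SUV39H pair had lower values at mid anagen and the other 4 had differences between -0.13 and 0.07. The class median was -0.09 (0.23 after rescaling), and -0.26 without the mid male library. SUV39H1, which writes the trimethyl mark of pericentric heterochromatin, was at 19.7 and 23.9 in April and 8.77 and 14.7 in October, a log2 difference of -0.88 (SE 0.26, limma adjusted p = 0.114). SUV39H2, its close relative, was at 13.4 and 13.9 in April and 7.88 and 9.19 in October, a difference of -0.63 (SE 0.15, limma adjusted p = 0.0861). The phases did not overlap for either, and after rescaling to a common total the differences were -0.55 and -0.31. The summed level of the pair was 33.1 and 37.8 in April and 16.6 and 23.9 in October. The other 4 enzymes, EHMT1, EHMT2, SETDB1 and SETDB2, summed to 67.4 and 70.8 in April and 61.8 and 72.3 in October, an overlap. EHMT2, the main writer of the dimethyl mark in euchromatin, differed by -0.13 (SE 0.15, limma adjusted p = 0.593) as deposited and by 0.20 after rescaling. The S phase genes had the same direction as the SUV39H pair, with a median of -0.69 and 40 of 43 lower in both mid libraries, and their part in the difference was not tested.

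In PRC2, the catalytic subunits differed in direction on the deposited scale. The median of the core subunits was -0.29 (0.04 after rescaling). EZH1, the subunit typical of resting and differentiated cells, was at 7.46 and 3.57 in April and at 12.6 and 10.1 in October, a log2 difference of 0.98 (SE 0.32, limma adjusted p = 0.132), the highest of the 69. EZH2, the subunit of dividing cells, was at 42.1 and 39.9 in April and 28.0 and 37.8 in October, a difference of -0.32 (SE 0.19, limma adjusted p = 0.31), which became 0.01 after rescaling. The phases did not overlap for either gene, although the mid male library lay close to the early ones for EZH2. EZH2 remained the more abundant of the pair on this length-scaled measure in all 4 libraries. The ratio of EZH2 to EZH1 was 5.65 and 11.2 in April and 2.22 and 3.76 in October (exact permutation test, two-sided p = 0.333, the smallest that 2 against 2 libraries allow). A ratio within a library does not depend on how libraries are scaled to each other.

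**Figure D2:**
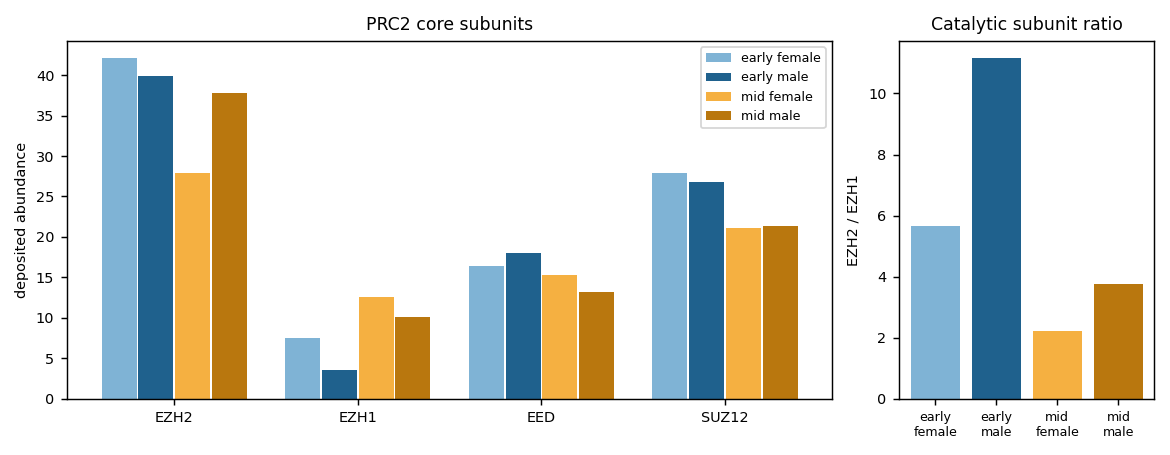
Deposited abundance of the 4 PRC2 core subunits in each library (left) and the ratio of EZH2 to EZH1 (right); 1 bar is 1 library. The ratio lies at 5.65 and 11.2 in April and at 2.22 and 3.76 in October.

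The non-catalytic core subunits were slightly lower at mid anagen as deposited. SUZ12, which holds the complex together, was at 27.9 and 26.8 in April and 21.1 and 21.4 in October (difference -0.35, SE 0.14, limma adjusted p = 0.172), and -0.02 after rescaling. EED, which binds the trimethyl mark, was at 16.4 and 18.0 in April and 15.3 and 13.2 in October (difference -0.25, SE 0.15, limma adjusted p = 0.328), and 0.07 after rescaling. Of 8 partner subunits of PRC2 in the tables, 0 passed, 2 had both mid libraries above and 4 had both below the early ones. Among all genes tested, 31.5% lay above and 30.9% below. RBBP7, a histone-binding subunit, was at 199.8 and 242.3 in April and 120.9 and 143.5 in October (difference -0.74, SE 0.19, limma adjusted p = 0.0955), and PHF19, a PRC2 targeting subunit, at 40.0 and 41.6 in April and 25.7 and 32.2 in October.

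PRC1, the other Polycomb complex, had 11 of 18 genes with both mid libraries above the early ones and 3 with both below, and 0 passed. Over all genes tested, 31.5% lay above in this way and 30.9% below. PCGF2, a PRC1 core subunit, was at 18.6 and 17.5 in April and 30.1 and 28.0 in October (difference 0.66, SE 0.14, limma adjusted p = 0.0792). The median over the 18 genes was 0.22, and 0.54 after rescaling.

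Writers at H4K20 and H3K79 showed little difference. Their median was 0.03 (0.35 after rescaling), and -0.03 to 0.12 with 1 library left out. KMT5A was at 103.8 and 103.3 in April and 99.9 and 97.1 in October (difference -0.07). KMT5B, which adds further methyl groups at the same site, was at 12.2 and 11.2 in April and 15.7 and 12.9 in October (difference 0.27, SE 0.16, limma adjusted p = 0.33), and its relative KMT5C differed by 0.13 (SE 0.16, limma adjusted p = 0.632). DOT1L, the H3K79 enzyme, was at 23.7 and 25.7 in April and 18.0 and 26.5 in October (difference -0.17, SE 0.21, limma adjusted p = 0.643), and the phases overlapped. The remaining SETD genes, several of which act on proteins other than histones, had a median of -0.30 (0.02 after rescaling). SETD9 was at 3.40 and 3.68 in April and 2.28 and 2.02 in October (difference -0.53, SE 0.18, limma adjusted p = 0.139), SETD4 differed by -0.33 (SE 0.15, limma adjusted p = 0.215) and SETD6, which methylates the NF-kB subunit RELA, by -0.27 (SE 0.14, limma adjusted p = 0.255). SETD3, which methylates actin, overlapped between phases.

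Most of the arginine methyltransferases had lower values at mid anagen, and none passed. In 5 of the 7 tested, both mid libraries lay below both early ones (30.9% of all genes tested) and in 0 both lay above (31.5%). The median was -0.40. After rescaling to a common total the median was -0.08. PRMT1 was at 321 and 443 in April and at 149.9 and 165 in October, a log2 difference of -1.26 (SE 0.22, limma adjusted p = 0.0724) and of -0.92 after rescaling. It is known for keeping epidermal progenitors undifferentiated, and its difference was the lowest of the 69. PRMT1 took 68.8% and 73.2% of the summed PRMT level in April and 56.1% and 59.1% in October, and the sum of the other PRMT genes was 145 and 162 in April and 117 and 114 in October.

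PRMT5, the main symmetric arginine methyltransferase, was at 45.4 and 65.6 in April and 35.3 and 37.3 in October (difference -0.58, SE 0.21, limma adjusted p = 0.156). Its partners had lower values too. WDR77, its obligate cofactor, was at 20.6 and 29.5 in April and 11.7 and 12.9 in October (difference -0.94, SE 0.21, limma adjusted p = 0.0817), and COPRS, which directs it to histones, at 32.5 and 32.3 in April and 14.3 and 18.1 in October (difference -0.96, SE 0.17, limma adjusted p = 0.0724). PRMT7, which adds single methyl groups, was at 21.1 and 25.4 in April and 15.3 and 16.7 in October (difference -0.51, SE 0.16, limma adjusted p = 0.126). PRMT6 was at 16.2 and 17.7 in April and 12.8 and 12.4 in October (difference -0.40, SE 0.14, limma adjusted p = 0.15). PRMT3, which methylates a ribosomal protein, was at 33.6 and 25.8 in April and 23.5 and 20.9 in October. PRMT2 and PRMT9 overlapped, with differences of -0.03 and 0.05. CARM1, also called PRMT4 and not taken by the rule, overlapped as well, at 71.4 and 76.8 in April and 62.1 and 85.5 in October (difference -0.02).

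**Figure D3:**
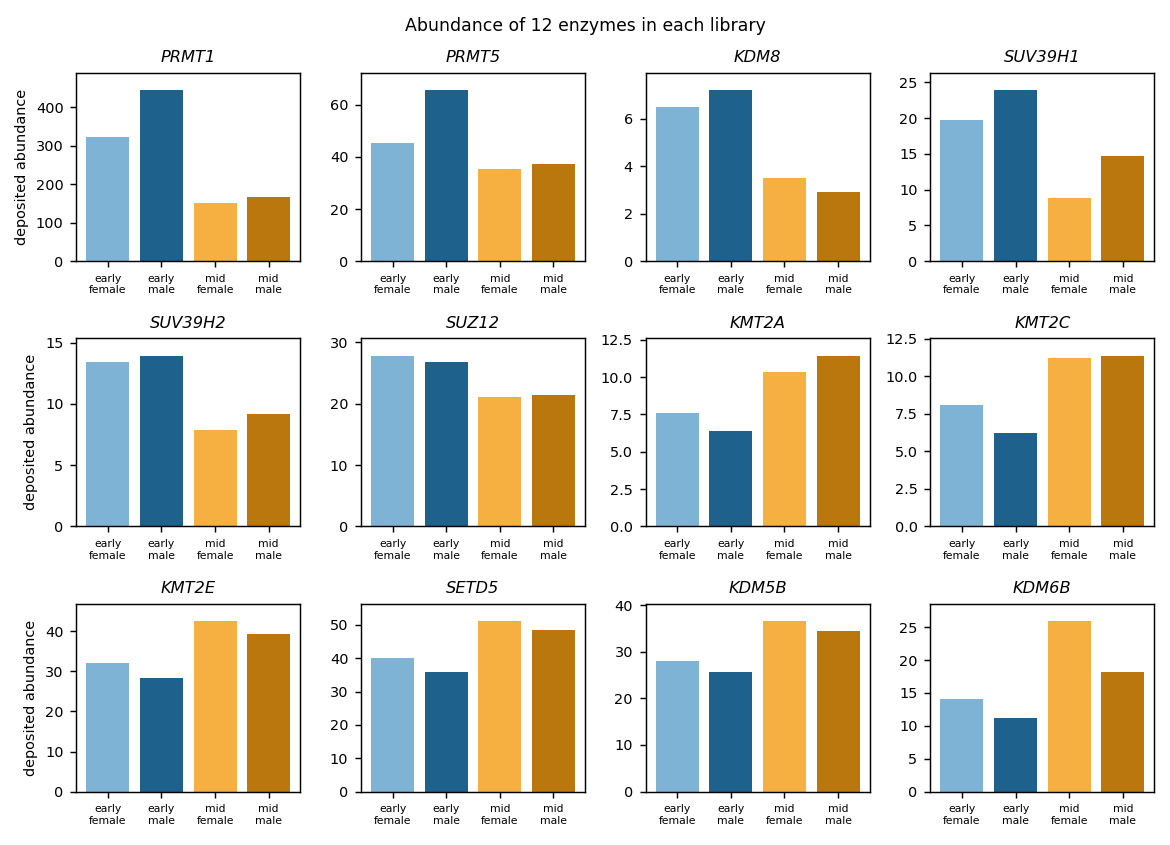
Deposited abundance of 12 enzymes in each library; 1 bar is 1 library and every axis starts at 0. The 12 shown are all enzymes whose mid libraries lie on 1 side of both early libraries. This held for 48 of the 69 tested (69.6%), and among all genes for 31.5% above and 30.9% below. PRMT1 goes from 321 and 443 to 149.9 and 165, and KDM6B from 14.1 and 11.2 to 26.0 and 18.1.

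The demethylases differed among themselves. Of the 5 H3K4 demethylases, 3 had both mid libraries above the early ones (31.5% of all genes tested) and 1 had both below (30.9%). The median was 0.13 (0.47 after rescaling), 0.06 without the early male and 0.21 without the early female library. KDM5B, a JmjC enzyme that removes methyl groups from H3K4, was at 27.9 and 25.7 in April and 36.6 and 34.5 in October (difference 0.39, SE 0.14, limma adjusted p = 0.153). KDM1B was at 7.18 and 7.23 in April and 9.29 and 9.92 in October (difference 0.37, SE 0.15, limma adjusted p = 0.175). Its far more abundant relative KDM1A, the LSD1 enzyme of the CoREST complex, was at 92.5 and 87.2 in April and 85.1 and 82.0 in October (difference -0.10). Thus both an enzyme that removes H3K4 methylation, KDM5B, and several that write it had higher values in the mid libraries.

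The demethylases of H3K9 and H3K36 had a median of 0.17 (0.50 after rescaling, 0.09 without the early male library). Of the 8, 4 lay above and 1 below the early libraries (31.5% and 30.9% of all genes tested). KDM3B, an H3K9 demethylase, was at 19.7 and 18.3 in April and 24.7 and 25.6 in October (difference 0.39, SE 0.14, limma adjusted p = 0.151), and KDM2A, an H3K36 demethylase, at 26.5 and 25.3 in April and 31.0 and 33.0 in October (difference 0.29, SE 0.14, limma adjusted p = 0.228). The exception was KDM8, a JmjC-domain hydroxylase described as an H3K36 demethylase. It was at 6.48 and 7.19 in April and 3.52 and 2.91 in October, a difference of -0.90 (SE 0.17, limma adjusted p = 0.0746), and of -0.62 after rescaling. KDM6B, which removes the PRC2 mark and is known to act in epidermal differentiation, was at 14.1 and 11.2 in April and 26.0 and 18.1 in October (difference 0.75, SE 0.22, limma adjusted p = 0.114). KDM7A overlapped between phases, with a difference of 0.15 (SE 0.19, limma adjusted p = 0.623). With KDM6A, given below, the median of the KDM6 and KDM7 genes was 0.29 (0.59 after rescaling). It ran from -0.025 to 0.733 with 1 library left out.

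Class I deacetylases, which include the catalytic subunits of the SIN3, NuRD, CoREST and NCOR complexes, were slightly lower at mid anagen as deposited. In all 4 both mid libraries lay below both early ones (30.9% of all genes tested), with a median of -0.28, which became 0.06 after rescaling. Relative to all genes the median was -0.29 as deposited and -0.26 after rescaling. HDAC3, the NCOR enzyme, was at 46.3 and 52.9 in April and 40.2 and 41.2 in October (difference -0.28, SE 0.15, limma adjusted p = 0.282). HDAC2 was at 97.4 and 103.6 in April and 92.7 and 74.2 in October (difference -0.27, SE 0.18, limma adjusted p = 0.353), and HDAC1 at 84.9 and 84.0 in April and 75.4 and 73.4 in October (difference -0.18). HDAC1 and HDAC2 together took 76.9% and 75.7% of the class's level in April and 78.4% and 75.9% in October, so the phases overlapped in that share. HDAC8 was at 8.32 and 7.37 in April and 6.16 and 5.78 in October (difference -0.34, SE 0.16, limma adjusted p = 0.219).

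Of the other deacetylases, HDAC4 and HDAC5, which shuttle between nucleus and cytoplasm, had both mid libraries above the early ones. HDAC4 was at 4.82 and 3.26 in April and 5.21 and 5.47 in October (difference 0.35, SE 0.21, limma adjusted p = 0.32) and HDAC5 at 46.2 and 43.6 in April and 48.6 and 62.4 in October (difference 0.29, SE 0.18, limma adjusted p = 0.331). HDAC10, a polyamine deacetylase, was at 28.1 and 25.3 in April and 22.5 and 24.7 in October (difference -0.17, SE 0.15, limma adjusted p = 0.478), and 0.16 after rescaling. HDAC6, a tubulin deacetylase, HDAC7 and HDAC11 overlapped. The class median was 0.09 (0.42 after rescaling), and it was -0.03 without the mid male and 0.23 without the mid female library. Among 29 partner subunits of deacetylase complexes 0 passed, with 15 above and 7 below the early libraries (31.5% and 30.9% of all genes tested). PHF21A, a reader of unmethylated H3K4 in the CoREST complex, was at 7.78 and 5.20 in April and 15.1 and 11.9 in October (difference 0.97, SE 0.23, limma adjusted p = 0.0851), and RCOR2, a CoREST scaffold, at 3.14 and 1.63 in April and 6.36 and 4.90 in October (difference 1.00, SE 0.28, limma adjusted p = 0.102).

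The sirtuins, which use NAD to remove acyl groups, had a median of -0.18 (0.16 after rescaling), and -0.09 without the mid male library. SIRT7, a nucleolar sirtuin, was at 38.1 and 41.8 in April and 28.7 and 31.8 in October (difference -0.39, SE 0.15, limma adjusted p = 0.164). SIRT4, a mitochondrial sirtuin, was at 3.47 and 3.38 in April and 2.74 and 1.83 in October (difference -0.45, SE 0.21, limma adjusted p = 0.232). SIRT1 was the exception in having both mid libraries above the early ones, at 9.97 and 9.90 in April and 10.9 and 12.7 in October (difference 0.22, SE 0.15, limma adjusted p = 0.383). SIRT5 and SIRT6 lay below their early values in both mid libraries, with differences of -0.18 and -0.20, and SIRT2 and SIRT3 overlapped.

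Other genes of these pathways were counted in the same way, and 0 of them passed. Over all genes tested 31.5% lay above and 30.9% below the early libraries. Of 12 subunits that accompany the H3K4 methyltransferases in COMPASS complexes, 1 lay above and 6 lay below the early libraries, with a median of -0.18 (0.15 after rescaling). The difference between these partners and the KMT2 genes was not tested. DPY30, a core subunit, was at 148 and 189.2 in April and 120.9 and 86.8 in October (difference -0.70, SE 0.23, limma adjusted p = 0.136), while NCOA6, a coactivator found with KMT2C and KMT2D, was at 16.4 and 14.9 in April and 20.5 and 23.7 in October (difference 0.47, SE 0.15, limma adjusted p = 0.132). Of 15 tested genes for other SET, PRDM and arginine methyltransferases and the PRMT5 partners, 4 lay above and 7 below, with a median of -0.03. Of 14 histone acetyltransferases, 9 lay above and 2 below. NCOA1, a nuclear receptor coactivator, was at 9.50 and 8.33 in April and 15.9 and 15.6 in October (difference 0.76, SE 0.15, limma adjusted p = 0.0753). HAT1, which acetylates newly made histones, was at 66.3 and 79.2 in April and 34.0 and 36.3 in October (difference -1.02, SE 0.16, limma adjusted p = 0.07). Of 8 heterochromatin readers, 3 lay above and 5 below, among the latter UHRF1 at 82.7 and 77.7 in April and 24.9 and 43.0 in October and CBX5 at 63.7 and 68.7 in April and 47.5 and 45.0 in October. UHRF1 is also in the S phase list and CBX5 in the G2 and mitosis list.

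The differences varied with gene length in the genome. Genomic spans were taken from the RefSeq table of the ARS1.2 assembly, which held all 72 enzymes. Over all genes tested, the median log2 difference was -0.17 for the 3556 genes spanning up to 10 kb, -0.03 from 10 to 30 kb, 0.08 from 30 to 100 kb and 0.26 for the 1652 genes over 100 kb. The enzymes in the same ranges had medians of -0.34 (9 genes), -0.07 (21 genes), 0.14 (30 genes) and 0.29 (9 genes). HDAC8 is in the shortest range with a span of 7.71 kb, while a separate HDAC8-like row spans 33.7 kb. Whether the HDAC8 span is complete was not tested. Spearman's rho between span and difference was 0.55 across the 69 enzymes and 0.31 across all 12486 genes, values that describe genes of the same 4 libraries. The enzymes had a median span of 33.8 kb, against 21.9 kb for all genes tested.

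With the trend on span removed from each library, an alternative chosen after seeing the data, the class medians moved unequally. That of the arginine methyltransferases was -0.46 against -0.40 as deposited. It was 0.32 against 0.39 for the H3K4 methyltransferases and -0.32 against -0.29 for the PRC2 core. The median of the H3K36 methyltransferases went from 0.34 to 0.12. That of the KDM6 and KDM7 genes went from 0.29 to 0.04, and that of the H3K9 and H3K36 demethylases from 0.17 to -0.02. PRMT1 was then at -1.15, EZH1 at 0.98, KDM8 at -0.87, SUV39H1 at -0.80, KDM6B at 0.80 and SUV39H2 at -0.60. KMT2C went from 0.60 to 0.31, KMT2A from 0.58 to 0.45 and KMT2E from 0.43 to 0.28. None of the 69 passed, and 10 (14.5%) had an unadjusted p under 0.05, against 25.8% of all genes.

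**Figure D4:**
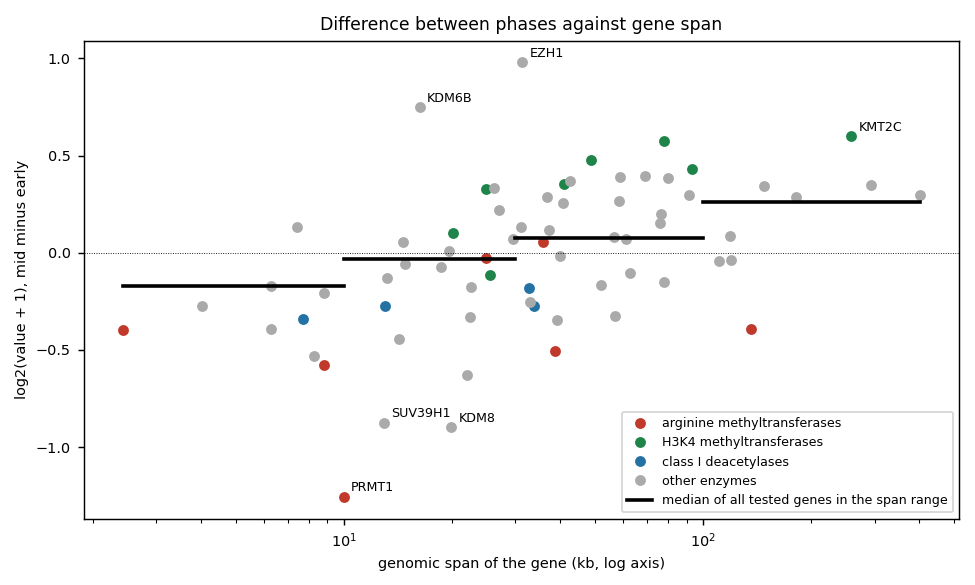
Log2 difference between mid and early anagen against the genomic span of each of the 69 enzymes, on a log axis in kb; points are genes and horizontal lines the median of all tested genes in 4 span ranges. The line rises from -0.17 to 0.26, and PRMT1, KDM8 and SUV39H1 lie below it and EZH1 and KDM6B above it.

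Sex was compared in a fit with phase and sex as terms. Of the 69 enzymes 0 passed, where 0.144% of all genes did, and 6 had an unadjusted p under 0.05, against 11% of all genes. The smallest p belonged to KDM6A, an H3K27 demethylase whose gene is X-linked in mammals and is known to escape X inactivation. It was at 10.8 in the early female and 13.9 in the mid female, and at 5.81 in the early male and 7.02 in the mid male. Both males lay below both females, as in 11.9% of all genes. The log2 difference of male from female was -0.84 (SE 0.15, limma adjusted p = 0.106). Rescaled to a common total its adjusted p in limma was 0.041, within a range of 0.041 to 1 over the alternatives. Between the phases KDM6A differed by 0.29 (SE 0.39, limma adjusted p = 0.662).

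A separate row, LOC108634619, is described in the tables as similar to KDM6A and was found after its values were seen. It was listed at 0 in both females, at 5.64 in the early male and at 6.31 in the mid male. It passed in limma (adjusted p = 0.009), but it reached 1 only in the male libraries, which fixed its direction, and the call ended with no filter (adjusted p = 0.119) and with sex as the only term (adjusted p = 0.234). RefSeq gives it no chromosome. The sum of KDM6A and this row was 10.8 and 11.5 in April and 13.9 and 13.3 in October, so the sexes overlapped in the sum and both mid libraries lay above both early ones. Whether reads were shared between the rows was not tested.

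**Figure D5:**
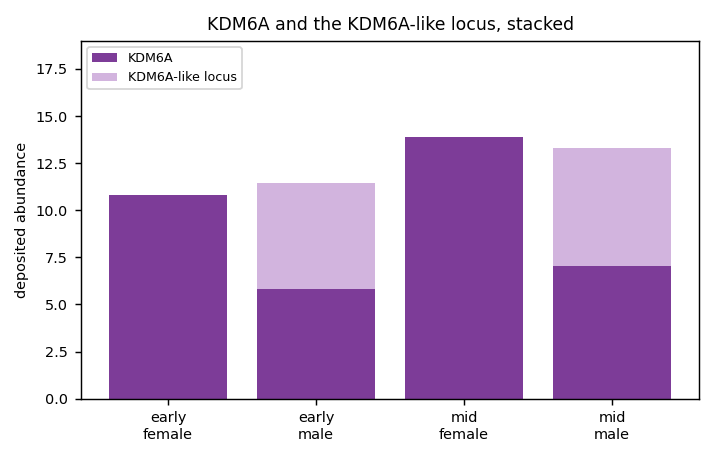
Deposited abundance of KDM6A (dark) with the KDM6A-like row stacked on it (light) in each library. The light part is at 0 in the females and at 5.64 and 6.31 in the males, and the stacked heights run from 10.8 to 13.9.

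Among the other enzymes whose genes are X-linked in mammals, none had both males below both females. RefSeq placed 3 of the 72 enzymes on chromosome X. KDM5C, an H3K4 demethylase, was at 32.7 and 29.4 in April and 33.4 and 34.9 in October, a male-female difference of -0.04 (SE 0.15, limma adjusted p = 0.95). For HDAC8 the difference was -0.12 (SE 0.15, limma adjusted p = 0.844) and for HDAC6 0.16 (SE 0.15, limma adjusted p = 0.771). SUV39H1 was higher in the male than in the female library of each phase, by 0.47 on average (SE 0.17, limma unadjusted p = 0.0279, limma adjusted p = 0.378). Between the phases KDM5C differed by 0.13 (SE 0.14, limma adjusted p = 0.577) and HDAC6 by -0.06 (SE 0.16, limma adjusted p = 0.843).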

How the data were processed

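RNA of 4 libraries was sequenced by the authors and deposited as a signal per gene, taken here, from its values and the tools named, as a length-normalised abundance rescaled between libraries, not counts. The submitters' processing notes list kallisto 0.46.1 and sleuth 0.30.0. How transcripts were summed, the annotation and the build were not given in the sources used here. Library totals were 1068429 and 1186966 in April and 933211 and 844960 in October, so they were lower in both mid libraries. Counts of genes lying above or below the early libraries were made on the values as deposited. Read depth is unknown. The RefSeq table of ARS1.2 held 20294 of the gene identifiers and was used for names and spans.

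limma 3.58.1 (R 4.3.3) was run on log2(value + 1) with an intensity trend, so differences are on that scale and understate changes of low genes. Genes that reached 1 in 2 or more libraries were tested, with Benjamini-Hochberg adjustment over all of them at 0.05. Phase was the only term (2 residual degrees of freedom). The code was checked on simulated data in which the spread was shuffled across genes. That check does not give error rates for these libraries. Enzymes named in full were the 3 of each class with the smallest p, the PRC2 core, the X-linked genes and those called with a replicate block, and from each partner list up to 2, of which 1 gene is not reported here by name. Enzymes and lists were chosen with earlier results of these data known. Alternatives were other pseudocounts, filters, scaling, terms, no trend, leaving out each library and removal of the span trend.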

Additional observations from a re-analysis of the deposited data

Results flagged for a closer look

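The female and the male pair of libraries differed in direction for 2 of the 69 enzymes when a difference of at least 0.1 on the log2 scale was asked of each pair. KMT2B, an H3K4 methyltransferase, had a difference (mid minus early) of -0.18 between the females and of 0.38 between the males. KDM2B, an H3K36 demethylase that also recruits PRC1 to CpG islands, had 0.11 between the females and -0.18 between the males. Each pair holds 1 library per phase, and the difference between the pairs was not tested.

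A signal in a row outside the 72 enzymes was the KDM6A-like row LOC108634619, at 5.64 in the early male and 6.31 in the mid male library and at 0 in both female libraries.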

How the results depend on the processing

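Read depth is unknown, and 2 libraries per phase limit every call. As deposited 38 genes and 0 enzymes were called between the phases. The numbers of genes called were 18 with a pseudocount of 0.1, 0 without a filter (3843 at an unadjusted p under 0.05), 648 after rescaling to a common total, 1782 with a replicate block and 0 to 628 when 1 library was left out. Of the 38 calls 73.7% were higher at mid anagen, against 87.2% after rescaling, 51.5% with the replicate block, 40.4% without the mid female and 45.7% without the mid male. Enzymes called were 6 with the replicate block, where 14.3% of all genes were called (PRMT1, SUV39H1, SUV39H2 and KDM8 lower, EZH1 and KDM6B higher) and 0 to 1 when 1 library was left out, the 1 being SUV39H1 without the mid male. In the other settings 0 were called. Among the 204 tested partner and cell cycle genes 0 were called as deposited, 1 with a filter of 5, 7 after rescaling, 60 with the replicate block and 0 to 28 with 1 library left out. Labels tie the replicate number only to sex. Female-male differences correlated between the phases at 0.29 across 12486 genes and at 0.51 across the 69 enzymes.

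The enzyme median of 0.01 was 0.03 with a filter of 5, 0.35 after rescaling, -0.018 with the span trend removed and 0.002 to 0.031 with 1 library left out. Over all 69 enzymes rescaling reversed 20, the largest of them at 0.325 in size as deposited, and removing the span trend reversed 4 (KDM4B, KDM4C and KDM5A beside HDAC6). Among the enzymes named in full, rescaling reversed EHMT2 (0.20), EZH2 (0.009), DOT1L (0.17), SETD6 (0.047), HDAC3 (0.06), HDAC2 (0.065), HDAC10 (0.16), EED (0.07) and HDAC6 (0.26). Of the same named enzymes, leaving out the mid female reversed DOT1L, KDM6A and HDAC6, leaving out the early male reversed KDM7A and KDM6A, and removing the span trend reversed HDAC6 (0.005). With 1 library left out the ranges were -0.429 to 0.10 for DOT1L, -0.161 to 0.733 for KDM6A, -0.197 to 0.082 for HDAC6 and -0.025 to 0.331 for KDM7A. Such fits assume that the remaining library of a phase varies as the other phase does.

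Between the sexes 18 genes and 0 enzymes were called. Genes called were 46 and 48 with pseudocounts of 0.1 and 5, 0 without a filter (1504 at an unadjusted p under 0.05), 101 with a filter of 5, 396 after rescaling and 1 with sex alone, and after rescaling 1 enzyme, KDM6A, was called. The planned comparisons of promoter motifs and of the EZH1 and EZH2 proteins were not run, since no sequences were used here.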

Other observations

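HR, the hairless protein, a JmjC-domain corepressor needed for hair cycling, was the most abundant of the 9 other JmjC genes tested, at 173.8 and 154 in April and at 197.1 and 155.8 in October (difference 0.10, SE 0.19, limma adjusted p = 0.772). Among those 9 genes 0 passed, and 3 had an unadjusted p under 0.05, against 27.9% of all genes. JMJD8 was at 42.1 and 41.6 in April and 58.1 and 55.4 in October, and JMJD1C, a relative of the H3K9 demethylases, at 14.1 and 11.8 in April and 18.3 and 18.0 in October.

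Rows described as similar to enzymes of the set lay apart from them by symbol. The HDAC8-like row LOC108633221 was at 5.58 and 5.40 in April and 4.94 and 4.67 in October, and the SETD3-like row LOC108633232 at 3.44 and 2.59 in April and 3.01 and 4.78 in October.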
